A study of Mus musculus with 9 samples.

Results

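Copy-number signal was examined at 6 short stretches of the mouse genome in DNA from 9 mammary tumours and in the pooled tail DNA hybridised with each of them. They were picked by coordinate from earlier results of the same arrays, because tumours differed strongly from the pool there over a short distance. Together they held 640 of the 963261 distinct probes on the array, or 0.0664%. The chromosome 4 locus, called the Skint cluster when it was picked, ran over chr4:111714319-113610545 and had 459 probes. The chromosome 11 locus, near Nlrp1, ran over chr11:70983627-71123122 with 53 probes, and the chromosome 12 locus, near Serpina3, over chr12:104951069-105205897 with 15. The other 3 loci had no gene name, chr17:38422258-38521704 with 29 probes, chr2:77706709-77871634 with 66, and chr7:38960941-38986421 with 18. These positions are the start of the first and the end of the last probe as the deposited files print them. The files name no genome build and pair no probe with a gene, so the gene names could not be checked and exons, introns and untranslated regions were not assigned.

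The design of the series compares tumours of mice with floxed Rb and p53 alleles, Rbf/f;p53f/f, with pooled tail DNA. Cre recombinase came from an MMTV-Cre transgene, driven by a mammary tumour virus promoter active in mammary epithelium, or from an adenovirus, Ad-Cre. There were 4 groups, of 1 MMTV-Cre tumour from a nulliparous mouse, 1 MMTV-Cre tumour from a parous mouse, 5 MMTV-Cre transplant tumours and 2 Ad-Cre transplant tumours. Tumour and pool are both labelled as of mixed strain background, the pool as coming from mice without tumours, and the description of each array states that the background of both is the same. No ages are given. The transplants carry titles of primary tumours, and the labels do not say in which mice they grew or whether any shared a donor. Each tumour filled 1 array, so the p-values below rest on the spread between tumours and on nothing finer. The limma test draws part of that spread from all windows of the genome. The pool was measured on all 9 arrays, and its spread over them is called the repeat error of a level below. This spread also takes in differences between scan days and between the tumours hybridised with the pool. A step between 2 tumours carries the error of 2 levels, and that of the tumour channel was not measured. A step above the repeat error therefore does not by itself show that 2 tumours differ.

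Inbred mouse strains differ from each other by deletions and duplications that often fall in clusters of related genes. A stretch that a pool of mice lacks gives almost no reference signal in such a comparison, and a stretch carried in many copies gives a very strong one. Skint genes encode butyrophilin-like membrane proteins of skin and thymus, and Skint1 is needed for the selection of gamma delta T cells of the epidermis. Nlrp1b encodes an inflammasome sensor that differs between mouse strains in its response to anthrax lethal toxin. Serpina3 genes encode secreted serine protease inhibitors, a family that expanded in rodents.

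Close relatedness within these families matters for a hybridisation assay, since copies of a gene that resemble each other can bind the same probe. RefSeq (GRCm38.p6) lists 11 Skint genes, all on chromosome 4, with 0 protein-coding genes of other names between them. It lists 3 Nlrp1 genes on chromosome 11, 2 of them protein-coding, and 14 Serpina3 genes on chromosome 12, 10 of them protein-coding. Again 0 other protein-coding genes lay between. The start of Serpina3n, the last Serpina3 gene in order, is placed at chr12:104406458-104406757, before the positions of the chromosome 12 locus. The builds of these 2 sets of positions are not shown to be the same. Among the gene starts given, 300 bases each, pairs were compared by the share of the 300 bases aligned to an identical base. The most alike Skint pair by this share was Skint6 and Skint5, at 89.7%. Skint6 lies at chr4:113286924-113287223 and Skint5 at chr4:113999454-113999753, both on the minus strand of GRCm38.p6, which is not shown to be the build of the array positions. The pair is printed as the most alike of 55 and does not stand for the cluster. Over all 55 Skint pairs the median share was 4.67%, and 5 pairs reached 50%. Bases left unaligned count as not identical, so a low share mostly means that little of the 2 starts could be aligned. Skint8 and Skint7, for example, had 111 identical bases among 120 aligned, a share of 37.0%. Capitals mark bases that differ from or have no partner in the other gene.
Skint6: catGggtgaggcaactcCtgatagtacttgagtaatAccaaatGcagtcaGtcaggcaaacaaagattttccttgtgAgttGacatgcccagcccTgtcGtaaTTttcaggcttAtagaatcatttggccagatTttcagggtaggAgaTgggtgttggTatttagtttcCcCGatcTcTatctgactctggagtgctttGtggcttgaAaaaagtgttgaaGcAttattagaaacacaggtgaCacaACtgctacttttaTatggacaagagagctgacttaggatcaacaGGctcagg
Skint5: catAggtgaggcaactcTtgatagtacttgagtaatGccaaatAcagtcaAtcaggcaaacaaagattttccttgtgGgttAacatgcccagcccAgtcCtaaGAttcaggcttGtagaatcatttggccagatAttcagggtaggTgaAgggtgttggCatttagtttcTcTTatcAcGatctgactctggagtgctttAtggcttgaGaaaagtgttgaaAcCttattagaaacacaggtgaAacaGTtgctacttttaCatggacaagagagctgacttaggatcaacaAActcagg

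The gene starts of Nlrp1a, chr11:71144655-71144954, and Nlrp1b, chr11:71230684-71230983, both on the minus strand of GRCm38.p6, were identical over 84.3%. They are shown for the same reason, with capitals again for bases without an identical partner.
Nlrp1a: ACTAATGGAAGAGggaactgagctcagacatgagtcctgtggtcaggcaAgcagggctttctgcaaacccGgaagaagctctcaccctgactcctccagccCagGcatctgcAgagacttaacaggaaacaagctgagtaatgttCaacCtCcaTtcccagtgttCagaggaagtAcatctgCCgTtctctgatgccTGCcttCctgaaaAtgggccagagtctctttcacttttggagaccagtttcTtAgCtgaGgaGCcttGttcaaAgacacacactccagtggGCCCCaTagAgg
Nlrp1b: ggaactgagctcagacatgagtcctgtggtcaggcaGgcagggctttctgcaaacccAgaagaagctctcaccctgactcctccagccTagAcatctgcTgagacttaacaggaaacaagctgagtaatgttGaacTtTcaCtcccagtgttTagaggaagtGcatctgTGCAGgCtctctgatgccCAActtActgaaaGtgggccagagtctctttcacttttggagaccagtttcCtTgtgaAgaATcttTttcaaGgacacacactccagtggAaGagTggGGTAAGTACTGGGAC
Each of the Skint starts has 31 such bases and each of the Nlrp1 starts 47. The sequences of the array's own probes were not used here, so how many places in the genome each probe matches was not measured.

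Values are given on 2 scales. A signal is the processed signal of a channel divided by the autosomal median of that channel on that array, so that 1 is the signal of a typical autosomal probe. A ratio is the log2 of tumour over pool, centred on the autosomal median of the array. Spot for spot, the pool signal was a median of 21.8 to 32.5 times the background around it, and that of the tumours 15.2 to 17.9 times. The weakest probes called well above background had signals of 0.0189 to 0.0251 in the pool and 0.0176 to 0.0233 in the tumours, and a level near those values is a floor and not a measurement. No probe of the 6 loci was saturated. As a check of the labels, a run of 4 low probes on chromosome 11, the chromosome of Trp53, was set against the probes around it. The signal left there was 30.4% to 36.2% of the surroundings in MMTV-Cre transplants 1 and 4 and in both tumours that were not transplanted, and 34.6% in Ad-Cre transplant 1. It was 50.5% in MMTV-Cre transplant 5 and 58.6% in Ad-Cre transplant 2. MMTV-Cre transplant 3 lay between these levels. With 96.7%, the library labelled MMTV-Cre transplant 2 did not show the loss seen in the others. What this library holds was not tested, and results are given with and without it.

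The loci were of 2 kinds. In the named blocks of chromosomes 4, 11, 12 and 17 the pool was dim, at 0.0086 to 0.289 times the autosomal median, and some tumours were brighter. Block 4 of chromosome 4 (0.289) and block 1 of chromosome 11 (0.115) were the least dim of them, and 6 of the 8 probes of the chromosome 12 block were above background in the pool on every array. In the loci of chromosomes 2 and 7 the pool was far brighter than a typical autosomal probe, and most tumours were less bright. A joint segmentation of the 9 profiles split the 6 loci into 12 blocks holding 613 of the 640 probes with at least 4 probes each. In 11 of the blocks the mean ratio differed from the flanks by at least 0.5 or ranged over at least 1 between tumours (log2), and block 2 of chromosome 4 did neither.

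**Figure D1:**
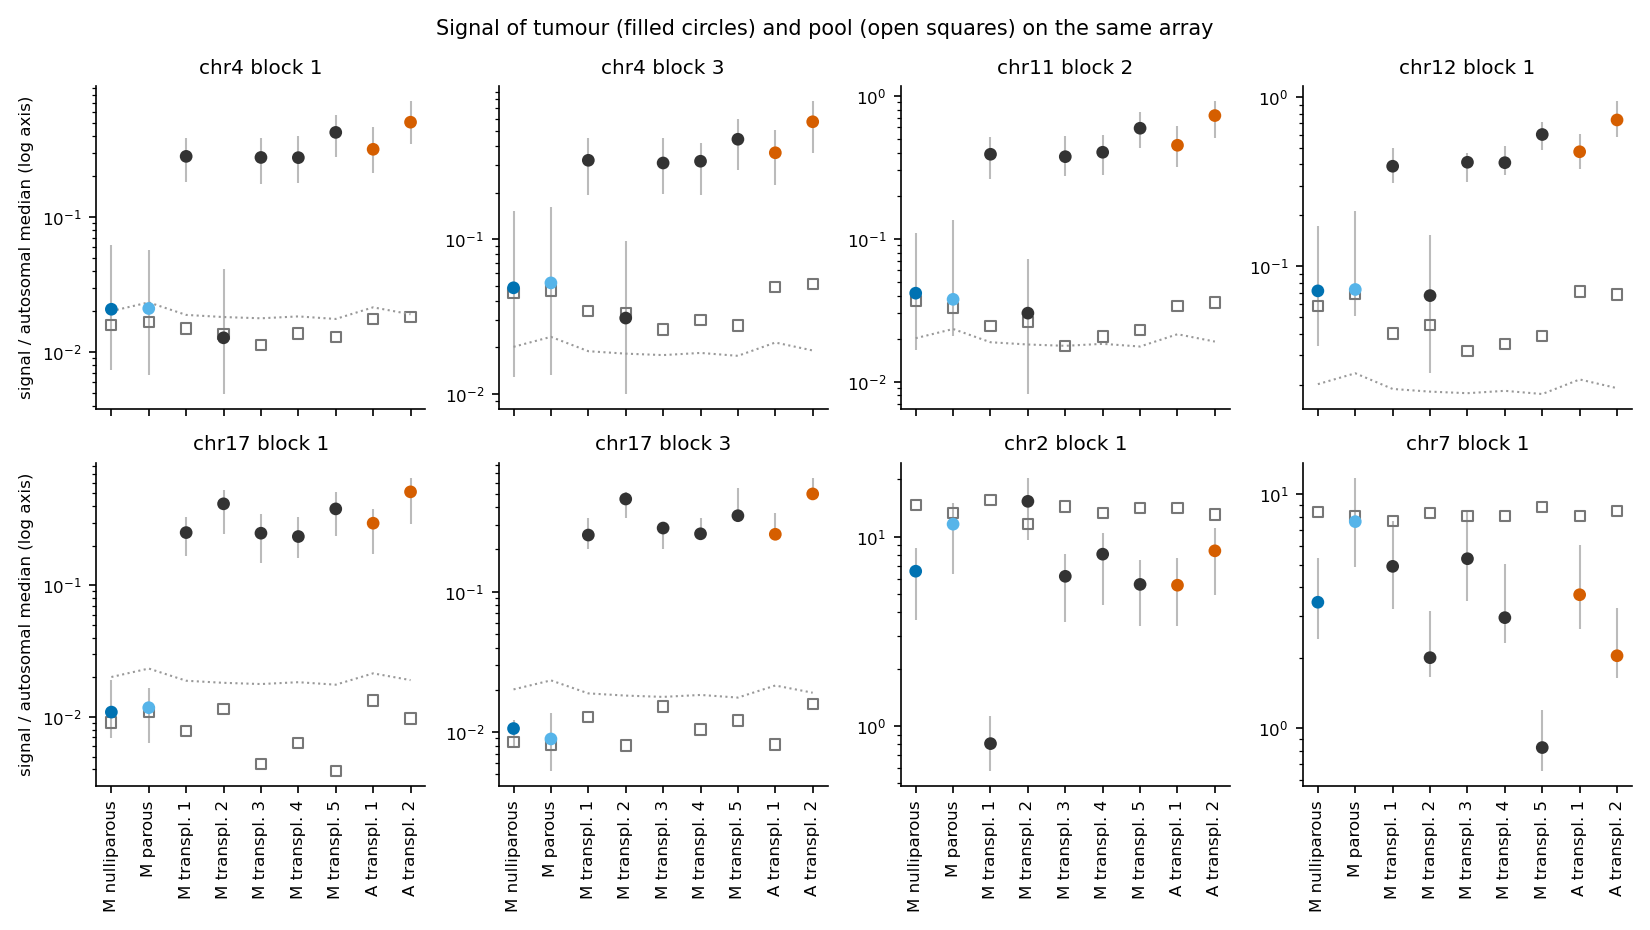
Signal of tumour and pool in 8 blocks of the 6 loci, as multiples of the autosomal median of the channel, on log axes that differ between panels. Filled circles are the median over the probes of a block in 1 tumour (blue nulliparous, light blue parous, black MMTV-Cre transplant, orange Ad-Cre transplant), grey bars its interquartile range over probes, open squares the pool on the same array, and the dotted line the tumour channel's floor. In the chromosome 4, 11 and 12 blocks 3 tumours lie with the pool and 6 above it, in chromosome 17 blocks only 2 lie with the pool, and on chromosomes 2 and 7 a single tumour each falls to 0.807 and 0.825.

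Block 1 of chromosome 4, chr4:111739515-112266833 with 142 probes, had a pool signal of 0.0150 ± 0.0023 (SD, n = 9 arrays), below the floor. The tumour signal was 0.0208 (nulliparous) and 0.0210 (parous), with 0.0128 for the library labelled MMTV-Cre transplant 2, all near or under the floor. It was 0.281, 0.276 and 0.275 in MMTV-Cre transplants 1, 3 and 4 and 0.423 in transplant 5. The Ad-Cre transplants gave 0.317 and 0.503. The division into 6 tumours with signal and 3 without was read from these same signals. The step between them was at least 3.56 on the log2 scale, with the low side at its floor, against a repeat error of the pool of 0.23. All 142 probes were well above background in 5 of the 6 and 141 in MMTV-Cre transplant 4, while 67, 64 and 57 were so in the nulliparous tumour, the parous tumour and the library labelled MMTV-Cre transplant 2. With every dim spot raised to its floor, the 6 tumours exceeded the pool by a median of at least 8.60-fold, in Ad-Cre transplant 1, to at least 15.2-fold, in MMTV-Cre transplant 5.

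Block 3 of the same locus, chr4:112506717-113243524 with 148 probes, repeated this order. The pool signal was 0.0381 ± 0.0098 (SD, n = 9 arrays). It ran from 0.0260 to 0.0299 beside MMTV-Cre transplants 3, 4 and 5, which shared a scan day. Beside the nulliparous, parous and Ad-Cre tumours of another day it ran from 0.0450 to 0.0512. Tumour signals were 0.0485, 0.0521 and 0.0309 in the nulliparous tumour, the parous tumour and the library labelled MMTV-Cre transplant 2. They were 0.323, 0.311, 0.319 and 0.442 in MMTV-Cre transplants 1, 3, 4 and 5, and 0.362 and 0.574 in the Ad-Cre transplants. The same 3 tumours were again at the level of the pool. Between these blocks lay block 2, chr4:112273283-112504314 with 87 probes, where the pool signal was 0.497 ± 0.0258 and ratios ran only from -0.10 to 0.40. Those 3 tumours were again lowest, at -0.10 to 0.01, and the others had 0.26 to 0.40. Block 4, chr4:113246661-113608126 with 74 probes, was intermediate, with a pool signal of 0.289 ± 0.0353 and ratios from -0.26 in the library labelled MMTV-Cre transplant 2 to 0.92 in MMTV-Cre transplant 5. Tumour signals in block 4 showed no clear division. The step from the parous tumour to MMTV-Cre transplant 4 was 0.09 on the log2 scale, below the repeat error of 0.17. A stretch whose ratios lay nearer to those of its flanks, though its pool signal was below 1, thus separated 2 stretches of the chromosome 4 locus that were far dimmer in the pool.

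**Figure D2:**
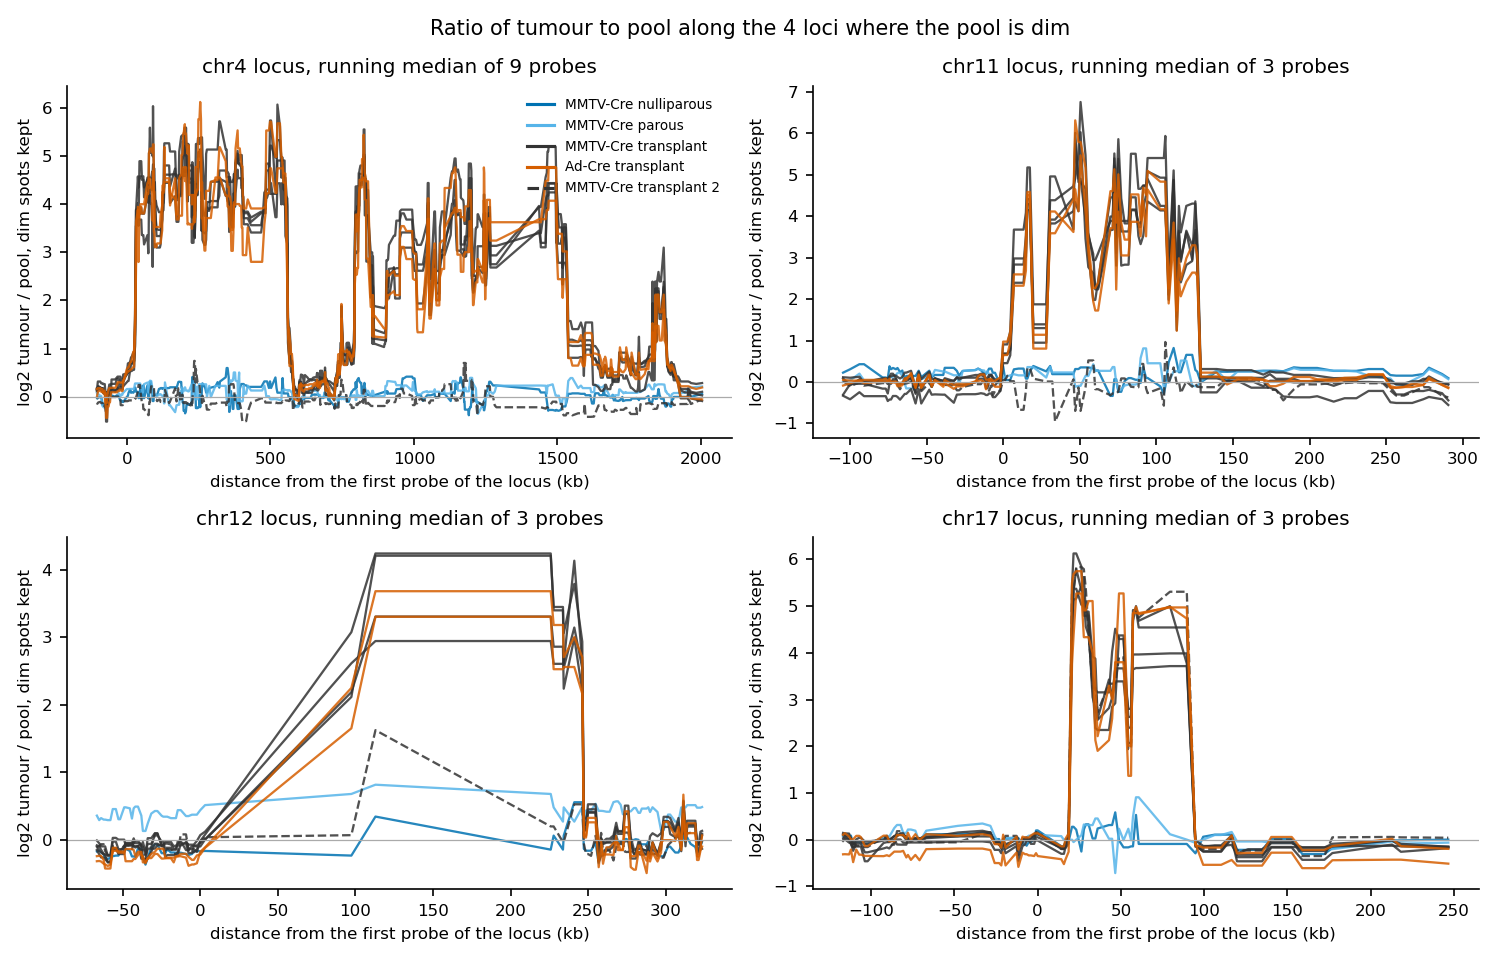
Log2 ratio of tumour to pool, with dim spots kept, against distance from the first probe of the locus in kb, as running medians of 9 probes (chromosome 4) or 3 probes (chromosomes 11, 12 and 17). Each line is 1 tumour, coloured by group, and the dashed line is the library labelled MMTV-Cre transplant 2. On chromosome 4 the 6 raised tumours fall toward the others over block 2, to block ratios of 0.26 to 0.40 against -0.10 to 0.01. They rise again over block 3. On chromosomes 4, 11 and 12 the dashed line stays with the nulliparous and parous tumours, and on chromosome 17 it rises with the other transplants.

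The chromosome 11 locus had the same division of tumours. Its larger block, chr11:71014299-71110377 with 39 probes, had a pool signal of 0.0279 ± 0.0069 (SD, n = 9 arrays). The nulliparous tumour, the parous tumour and the library labelled MMTV-Cre transplant 2 had signals of 0.0416, 0.0376 and 0.0301. MMTV-Cre transplants 1, 3, 4 and 5 had 0.389, 0.375, 0.402 and 0.592, and the Ad-Cre transplants 0.450 and 0.726. The 6 tumours exceeded the pool, dim spots at their floor, by a median of at least 8.90-fold to at least 19.0-fold. The block before it, chr11:70983627-71011812 with 12 probes, was less dim in the pool, 0.115 ± 0.0246, and its tumour signals ran from 0.0788 to 0.184 in the 3 low tumours and from 0.445 to 0.820 in the 6 others.

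The chromosome 12 locus rested on few probes. Its block, chr12:105048428-105197313, had 8 of the 15 probes and a pool signal of 0.0507 ± 0.0159. Signals were 0.0716, 0.0730 and 0.0672 in the nulliparous tumour, the parous tumour and the library labelled MMTV-Cre transplant 2. MMTV-Cre transplants 1, 3, 4 and 5 had 0.390, 0.412, 0.410 and 0.601, and the Ad-Cre transplants 0.476 and 0.733. The 3 lowest tumours were the same as on chromosomes 4 and 11, a division read from these same signals. The largest step in the order, 2.42 on the log2 scale, was the only 1 of 8 steps above the repeat error of 0.46.

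On chromosome 17 the division was different. The pool signal was 0.0086 ± 0.0032 in block 1 (chr17:38442872-38452892, 7 probes), 0.0292 ± 0.0089 in block 2 (chr17:38455224-38478386, 10 probes) and 0.0110 ± 0.0031 in block 3 (chr17:38479479-38511860, 5 probes). In block 1 the nulliparous and parous tumours had 0.0109 and 0.0118, and MMTV-Cre transplants 1, 3, 4 and 5 had 0.252, 0.249, 0.235 and 0.381. The library labelled MMTV-Cre transplant 2 had 0.416 here, and the Ad-Cre transplants 0.296 and 0.513. This library was therefore low on chromosomes 4, 11 and 12 and second highest of the 9 on chromosome 17, in blocks 1, 2 and 3 alike (0.416, 0.283 and 0.458). All 7 transplants, of either Cre source, lay above both tumours that were not transplanted. In ratios over windows of 20 kb, dim spots at their floor, this held in 2 of 3 windows of the locus. It also held in 2710 of all 75587 windows. In block 1 the 7 transplants exceeded the pool by a median of at least 11.7-fold to at least 25.4-fold. The step to the 2 low tumours, taken at the floor, was at least 3.33 on the log2 scale.

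Leaving aside the library labelled MMTV-Cre transplant 2, the 6 tumours with signal kept MMTV-Cre transplant 5 and Ad-Cre transplant 2 on top in these blocks. MMTV-Cre transplant 5 exceeded the mean of transplants 1, 3 and 4 by 1.52 times in block 1 of chromosome 4, 1.52 times in the larger chromosome 11 block, 1.49 times on chromosome 12 and 1.55 times in block 1 of chromosome 17. Ad-Cre transplant 2 exceeded Ad-Cre transplant 1 by 1.59, 1.61, 1.54 and 1.73 times in the same blocks. These are also the 2 tumours, beside the library labelled MMTV-Cre transplant 2, with the most signal left in the low run of chromosome 11, at 50.5% and 58.6% of the flanks. In bulk DNA, fewer copies per cell and fewer cells with the stretch cannot be told apart, and the part that admixture of other cells plays in these levels was not tested. In block 1 of chromosome 4 the steps within the raised tumours were at most 0.42 on the log2 scale, so the division into raised and low tumours exceeded the repeat error far more than the order among raised ones did.

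Single probes show the depth behind these levels in raw processed intensity. In the chromosome 4 locus the probe with the highest mean ratio, A_67_P12950962 at chr4:112543207-112543266, had pool intensities of 4.24 to 10.4, above background on 0 arrays. Its tumour intensity was 15.8 (nulliparous), 18.0 (parous) and 34.7, the last from the library labelled MMTV-Cre transplant 2. It was 223 to 509 in the 6 others. Its counterpart on chromosome 11, A_67_P07390533 at chr11:71032791-71032850, had 8.73, 5.58 and 4.86 in the 3 low tumours and 431 to 853 in the rest. On chromosome 17, probe A_67_P08774217 at chr17:38448491-38448550 gave 41.5 and 46.8 in the nulliparous and parous tumours, 1400 in the library labelled MMTV-Cre transplant 2, and 691 to 1464 over all 7 transplants. For comparison, the median autosomal probe had an intensity of 1071 to 1191 in the tumour channel.

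The chromosome 2 locus was bright in the pool. Its block, chr2:77708141-77863815 with 64 of 66 probes, had a pool signal of 13.8 ± 1.11 (SD, n = 9 arrays). The pool ran from 11.7 beside the brightest tumour, the library labelled MMTV-Cre transplant 2, to 15.5 beside the dimmest, MMTV-Cre transplant 1. The parous tumour had a signal of 11.6 and the nulliparous tumour 6.56. In MMTV-Cre transplant 1 the signal was 0.807, in transplant 3 it was 6.17, in transplant 4 it was 8.07 and in transplant 5 it was 5.59. The library labelled MMTV-Cre transplant 2 had 15.3 and the Ad-Cre transplants 5.53 and 8.41. MMTV-Cre transplant 1 thus stood near the level of a typical autosomal probe, and the library labelled MMTV-Cre transplant 2 above its pool. In ratios the tumours ran from -4.25 to 0.45, with -1.42 and -0.71 in the Ad-Cre transplants, -1.24 in the nulliparous and -0.30 in the parous tumour. Of the 8 steps in the order of tumours, 5 exceeded the repeat error of 0.12. The smallest of these, 0.14 from MMTV-Cre transplant 5 to transplant 3, exceeded it only narrowly. Ad-Cre transplant 1 and MMTV-Cre transplant 5 did not differ beyond it, nor did MMTV-Cre transplant 3 and the nulliparous tumour, nor MMTV-Cre transplant 4 and Ad-Cre transplant 2.

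The chromosome 7 locus was shorter and ordered the tumours in another way. The block, chr7:38960941-38985531 with 17 of 18 probes, had a pool signal of 8.22 ± 0.334 (SD, n = 9 arrays). The parous tumour had a signal of 7.64 and the nulliparous tumour 3.45. MMTV-Cre transplants 1, 3, 4 and 5 had 4.91, 5.30, 2.97 and 0.825. The Ad-Cre transplants had 3.72 and 2.04, and the library labelled MMTV-Cre transplant 2 had a ratio of -1.88 against -1.97 in Ad-Cre transplant 2. Here MMTV-Cre transplant 5 stood near the level of a typical autosomal probe, with a ratio of -3.51, and only the parous tumour, at -0.08, came near the pool. The repeat error was 0.058, and 7 of 8 steps in the order exceeded it, the exception being the library labelled MMTV-Cre transplant 2 against Ad-Cre transplant 2. A step is a difference of 2 levels, so small ones do not settle the order. Such was the step of 0.11 from the nulliparous tumour to Ad-Cre transplant 1. The lowest probe, A_67_P01501679 at chr7:38974143-38974202, had an intensity of 582 in MMTV-Cre transplant 5 and 10244 in the parous tumour, against 11713 to 13533 in the pool.

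**Figure D3:**
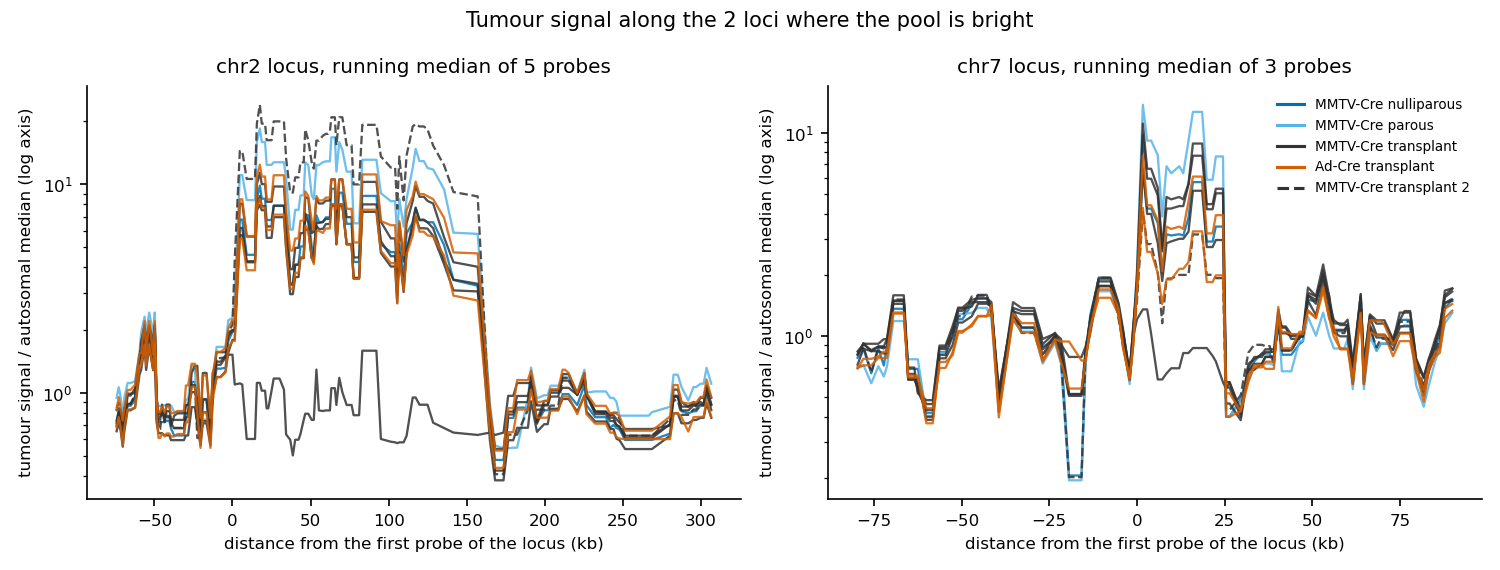
Tumour signal as a multiple of the autosomal median, on a log axis, against distance from the first probe of the locus in kb, as running medians of 5 probes (chromosome 2) or 3 probes (chromosome 7). Each line is 1 tumour, coloured by group, and the dashed line is the library labelled MMTV-Cre transplant 2. Within the chromosome 2 block (64 probes) MMTV-Cre transplant 1 runs level with the flanks, near 0.807, and within the chromosome 7 block (17 probes) MMTV-Cre transplant 5 does so, near 0.825, while the other 8 tumours rise at the same edges.

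The order of the tumours differed between the loci. The tumour lowest on chromosome 2, MMTV-Cre transplant 1, was among the 3 highest on chromosome 7, and the tumour lowest on chromosome 7, MMTV-Cre transplant 5, was among the 3 lowest on chromosome 2. The library labelled MMTV-Cre transplant 2 was highest on chromosome 2 and second lowest on chromosome 7. Over the 11 named blocks the nulliparous and parous tumours were the most alike pair, with a mean absolute difference of 0.31 (log2 ratio), and MMTV-Cre transplant 4 and Ad-Cre transplant 2 came next at 0.32. The farthest apart were the parous tumour and MMTV-Cre transplant 5, at 3.43. This order rests on joining both kinds of locus. In the dim loci alone MMTV-Cre transplants 1 and 3 (0.18), 3 and 4 (0.18) and 1 and 4 (0.20) were closer than the nulliparous and parous tumours (0.21), and MMTV-Cre transplant 4 and Ad-Cre transplant 2 differed by 0.42. In the bright loci the nulliparous and parous tumours differed by 1.05, and the nulliparous tumour and Ad-Cre transplant 1 by 0.16.

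At the coordinates that chose the loci, the ratio stepped at the first probe of the chromosome 11 and chromosome 7 loci. On chromosome 11 the last probe before the locus had a mean ratio of 0.04 ± 0.21 (SD, n = 9) and the first inside 3.72 ± 2.88. On chromosome 7 the last probe before had -0.30 ± 0.07 and the first inside -1.44 ± 1.26. On chromosome 4 the last probe before had 0.25 ± 0.10 and the first inside 0.45 ± 0.32, so the coordinates that chose this locus begin ahead of its first block. No step stood at the start of the loci of chromosome 2 (-0.18 before, -0.17 inside), chromosome 12 (-0.075 and -0.070) or chromosome 17 (0.07 and 0.12).

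With dim reference spots left out, as is usual for ratios, 391 of the 640 probes passed on every array, and the loci looked flatter. The locus means over the 9 tumours were then 0.76 ± 0.62 (SD, n = 9) on chromosome 4, 1.78 ± 1.31 on chromosome 11, 0.53 ± 0.39 on chromosome 12 and 0.52 ± 0.63 on chromosome 17. With dim spots kept they were 1.75 ± 1.33, 2.46 ± 1.80, 1.56 ± 1.14 and 2.96 ± 1.73. The chromosome 2 and chromosome 7 means, -1.22 ± 1.28 and -1.36 ± 0.997, did not depend on this filter, since 66 of 66 and 18 of 18 probes passed. On chromosome 17 only 10 of 29 probes passed on every array, and the ratios of the tumours then ran from -0.04 to 1.77. A normexp background correction of the median signals, which lifts dim signals by an offset of 50, moved the means of the 4 dim loci to -0.083, 0.043, -0.041 and -0.14, in the same order.

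Whether the loci differed between groups of tumours was tested in 20 kb windows across the genome with limma and Benjamini-Hochberg adjustment over all windows, at a threshold of 0.05. With dim reference spots left out, 75459 windows were tested, 28 of them in the loci. Against the pool, the contrast that chose the loci, 34.3% of all windows passed and 22 of the 28 did, from which nothing is read. Between Ad-Cre and MMTV-Cre tumours 0 windows passed, 0% of those tested, with 2130 (2.82%) at an unadjusted p under 0.05. Between the 5 MMTV-Cre transplants and the 2 other MMTV-Cre tumours 0 passed as well, with 3457 (4.58%) at an unadjusted p under 0.05. Without the library labelled MMTV-Cre transplant 2, 4 windows passed and 3 lay in the loci, 2 on chromosome 4 and 1 on chromosome 12.

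Since the filter removes most of the windows concerned, the comparisons were repeated with dim spots raised to the floor of their channel, a setting chosen after seeing the data, which left 75587 windows and 73 in the loci. The MMTV-Cre transplants then exceeded the 2 other MMTV-Cre tumours in 16 windows, 0.0212% of those tested (3534, or 4.68%, at an unadjusted p under 0.05), and 2 of the 16 were the windows of the chromosome 17 locus that cover blocks 1 and 2. The window from 38440001 to 38460000 had mean ratios of 3.20 in the transplants and -0.19 in the other 2, and the next, to 38480000, had 2.78 and -0.14. In the transplants the pool spots were raised, so their means are lower bounds. In the other 2 tumours spots of both channels were raised, so their means partly reflect the floors. The differences, 3.40 and 2.92, are therefore not strict bounds, and no p is given for them. With no filter and no floor 14 windows passed (0.0185%), 2 of them the same windows. The first then had 4.80 and 0.16 (difference 4.64, SE 0.17, limma), and the second 3.39 and 0.08 (difference 3.31, SE 0.26, limma). The pool and the 2 lower tumours were near background in part of these probes in that setting too. All 5 transplants were above both other tumours in both windows, which held for 5.07% of all windows. The loci were chosen from ratios to the pool, and the 2 lower tumours lay at the level of the pool here. This contrast thus partly restates that choice, and its p is not given. The same holds for counts of windows passing at the other dim loci, from which nothing more is read. None of the 54 chromosome 4 windows, 7 chromosome 11 windows or the chromosome 12 window passed, with medians of the difference at 1.91, 2.44 and 1.89. Without the library labelled MMTV-Cre transplant 2, 91 windows passed (0.12%), and 48 of them lay in the loci, 38 of 54 on chromosome 4, 7 of 7 on chromosome 11, 1 of 1 on chromosome 12 and 2 of 3 on chromosome 17. With no filter and no floor, also run after seeing the data, 89 passed without it (0.118%), 47 of them in the loci. On chromosomes 2 and 7, 0 of 7 and 0 of 1 windows passed with or without that library. All 5 transplants were scanned on other days than the nulliparous and parous tumours, so in this comparison scan day and transplantation cannot be told apart.

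The Ad-Cre transplants were scanned on the same day as the nulliparous and parous tumours. On that day only the Ad-Cre tumours were transplants, so Cre source and transplantation cannot be told apart within it. Over all MMTV-Cre tumours 0 windows differed from Ad-Cre with dim spots at the floor (2140 of 75587 at an unadjusted p under 0.05, 2.83%). Within that scan day, 2 tumours against 2, 415 windows passed (0.549%), 50 of them in the loci: 39 of 54 on chromosome 4, 7 of 7 on chromosome 11, 1 of 1 on chromosome 12, 2 of 3 on chromosome 17 and 1 of 1 on chromosome 7, where the Ad-Cre tumours were lower by a difference of -0.86. With no filter and no floor, run after seeing the data, 414 passed (0.548%), 50 of them in the loci with the same counts per locus. In both runs limma drew the spread from all windows as well as from these tumours. The counts therefore do not rest on the spread between these tumours alone. At the dim loci the nulliparous and parous tumours lay at the level of the pool. This contrast thus partly restates the choice of the loci, and nothing more is read from its counts there. With scan day as a fixed block, also chosen after seeing the data, 70 windows passed (0.0926%), 34 of them in the loci. The other days held only MMTV-Cre transplants, so the fixed block takes its difference from the same 2 tumours against 2. The median differences were the same in both settings, 2.37 on chromosome 4 and 2.72 on chromosome 11. Signal at the dim loci was present in tumours of all 3 scan days. Tumours without it on chromosomes 4, 11 and 12 had been scanned on 2 of the 3 days.

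The 4 dim loci were not alone in the genome. Of 914119 autosomal probes, 863 (0.0944%) were not well above background in the pool on any array, and 143 of the 863 (16.6%) lay in the loci. Of those 143 probes, MMTV-Cre transplants 1, 3 and 5 and both Ad-Cre transplants had signal at 143, and MMTV-Cre transplant 4 at 141. The nulliparous tumour had signal at 7, the parous tumour at 3 and the library labelled MMTV-Cre transplant 2 at 18. Elsewhere on the autosomes 720 probes were dim in the pool. There, 706 to 710 had signal in the same 6 transplants, 80 (nulliparous) and 70 (parous) in the tumours that were not transplanted, and 380 (52.8%) with the library labelled MMTV-Cre transplant 2. The nulliparous and parous tumours thus had no signal above background at most probes that were dim in the pool, in the loci and elsewhere, with the library labelled MMTV-Cre transplant 2 between them and the other transplants.

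**Figure D4:**
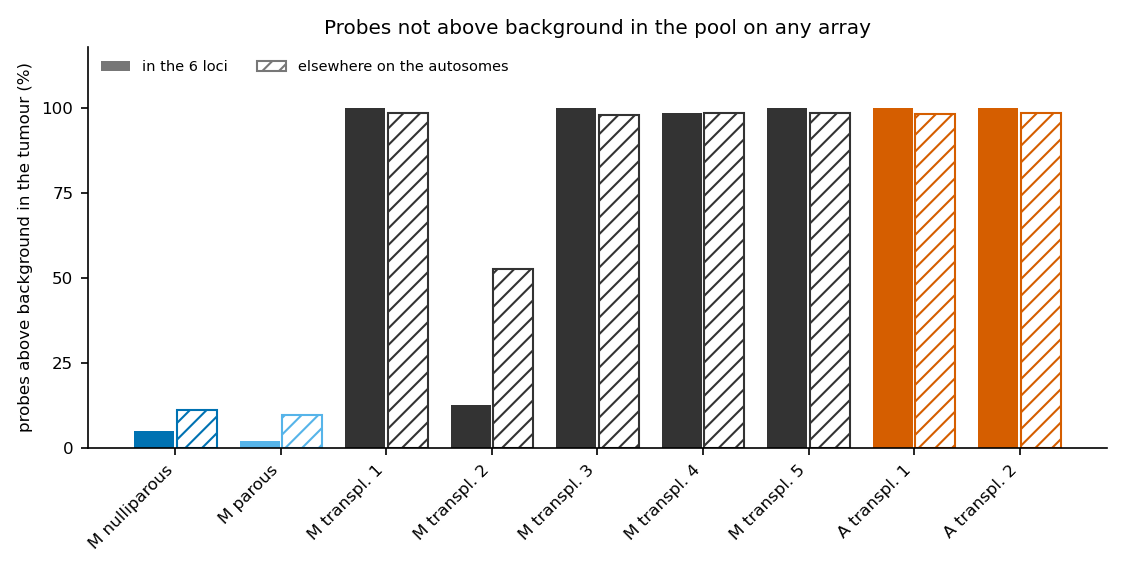
Share of the autosomal probes not above background in the pool on any array that were well above background in each tumour, in percent, for the 143 probes in the loci (filled bars) and the 720 elsewhere (hatched bars). Colours give the group. The other 6 transplants lie at 98.1% or more on both bars, the nulliparous and parous tumours at 11.1% or less, and the library labelled MMTV-Cre transplant 2 at 12.6% in the loci and 52.8% elsewhere.

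Windows outside the loci with the most similar pattern over the 9 tumours were found by correlation, and their values are given in place of the coefficient because the tumours fall into 2 clusters. For chromosomes 4 and 11 they included the window of chromosome 4 from 6080001, with ratios of -0.29, -0.13 and -0.32 in the nulliparous tumour, the parous tumour and the library labelled MMTV-Cre transplant 2 and 3.97 to 5.42 in the 6 others. Windows on chromosome 5 from 62180001 and on chromosome 16 from 36300001 followed the same division, as did, for chromosome 12, a window on chromosome 1 from 176240001. For chromosome 17 they were windows on chromosome 4 from 12040001, on chromosome 6 from 41020001 and on chromosome 12 from 115320001. In the chromosome 6 window the library labelled MMTV-Cre transplant 2 had the highest ratio, 6.49, with 0.01 and -0.03 in the nulliparous and parous tumours. Both divisions of the tumours seen in the loci were thus also found at other places.

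Bright pool signal was rarer. Of 75591 windows 12 had a pool signal of at least 4 times the autosomal median, and 8 of them lay in the chromosome 2 and chromosome 7 loci. The other 4 were 3 neighbouring windows near the start of chromosome 11, from 3040001, at 11.6 to 12.5 times, and 1 on chromosome 12 from 116840001 at 4.67 times. That last window was also the one most similar to the chromosome 7 locus over the tumours, with ratios from 0.40 in the parous tumour to -1.55 in Ad-Cre transplant 2 and -1.14 in MMTV-Cre transplant 5. For chromosome 2 the most similar window, on chromosome 8 from 112800001, reached only -0.51 in MMTV-Cre transplant 1, far from the -4.25 of the locus. By spread between tumours, 2837 of 75587 windows (3.75%) had a range of at least 1 (log2), and 60 of the 73 in the loci did. The loci were chosen for large ratios, so their share only describes them.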

How the data were processed

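DNA of 9 tumours and of a tail DNA pool was hybridised together on 2-colour Agilent arrays of design 027414, tumour in Cy5 and pool in Cy3 per the labels. The deposited files, written with Feature Extraction 10.5.1.1 per the file headers, give each spot's intensity after background subtraction and dye normalisation, median signals, background flags and a log10 ratio of red over green. The table deposited for the whole series gives these log10 values again, rounded to within 0.005. Genome build and further steps are not given in the sources used here. Of 974016 spots per array, 967261 were probes.

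Here log2 ratios of the processed signals were taken, leaving out spots with a non-uniformity or population-outlier flag and, in the main setting, spots not well above background in the pool (1597 to 2115 per array). Arrays were centred on their autosomal median. Repeat spots of a probe were averaged. Blocks came from a joint least-squares segmentation (penalty factor 40, at least 4 probes). Windows of 20 kb with at least 5 probes went into limma (version 3.58.1, R 4.3.3; Benjamini-Hochberg, 0.05), checked on simulated shifts. No probe of the loci was saturated. Bounds use, per array and channel, the lowest signal among probes well above background. The number of arrays limits the precision. Figures were drawn with matplotlib 3.10.9, and other steps used numpy 2.4.6, scipy 1.17.1 and pandas 2.3.3 in Python 3.11.15.

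The loci, lists and tests were chosen with earlier results of these data known. Named are all loci, the blocks that stand off their flanks, the probes with the highest or lowest mean, and the 3 most similar windows per locus. Gene names and sequences come from RefSeq tables (GRCm38.p6), used for names and neighbours only. Alternatives were normexp or loess, other centring, filters, window sizes and summaries, scan day as a block, and each tumour left out.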

Additional observations from a re-analysis of the deposited data

Results flagged for a closer look

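Among 17 sets of values of the 5 MMTV-Cre transplants (log2 ratios of the 6 loci and log2 signals of the 11 named blocks), 5 had 1 tumour far from the other 4. Chance marks about 1 in 20 independent groups, but these sets share tumours and probes, so 5 of 17 cannot be set against that share. In all 5 the tumour was the library labelled MMTV-Cre transplant 2, and it was low. Its log2 signal, relative to the autosomal median, was -6.29 in block 1 of chromosome 4, where the other 4 lay between -1.86 and -1.24. In block 3 of chromosome 4 it was -5.02, against -1.69 to -1.18. On chromosome 11 it was -3.67 in the first block, against -1.17 to -0.51, and -5.05 in the second, against -1.42 to -0.76. On chromosome 12 it was -3.90, against -1.36 to -0.73. The chromosome 17 blocks did not set this library apart.

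The 2 windows of the chromosome 17 locus differed between the 5 MMTV-Cre transplants and the 2 other MMTV-Cre tumours by 3.40 and 2.92 (log2, dim spots at their floor). Spots raised to the floor in both channels enter these values, so they are not strict bounds and their p is not given. With no filter and no floor the differences were 4.64 and 3.31. Scan day is not separable from this difference.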

How the results depend on the processing

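Leaving out each tumour in turn kept the mean log2 ratio between 0.67 and 0.88 on chromosome 4, 1.61 and 2.01 on chromosome 11, 0.47 and 0.62 on chromosome 12, 0.36 and 0.59 on chromosome 17, -1.43 and -0.84 on chromosome 2, and -1.52 and -1.10 on chromosome 7. Over all alternatives 103 of 114 such means moved by less than the spread between tumours. Those that moved further were all at dim loci. With normexp the means were -0.083 (chromosome 4), 0.043 (11), -0.041 (12) and -0.14 (17). With no filter on dim reference spots they were 1.75 (4), 1.56 (12) and 2.96 (17), and with dim spots raised to the floor 1.55, 1.55 and 2.15. The mean of the probes gave 0.97 on chromosome 12. The log2 pool signal moved beyond its repeat error only when the mean of the probes replaced the median, to -4.45 (chromosome 11), -4.66 (17), 3.49 (2) and 2.60 (7).

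Counts of windows that passed inside the loci were 0 in both group comparisons. For Ad-Cre against MMTV-Cre they became 1 with scan day as a fixed block, where 6 of all 75459 windows passed. Within the shared scan day they became 6, where 335 of all 75459 passed, 300 of them lower in Ad-Cre. With dim spots also raised to the floor they were 34 and 50, where 70 and 415 of all 75587 passed. Within the shared scan day the count was 50 with no filter too, where 414 of all 75587 passed. Leaving out tumours kept the count for Ad-Cre against MMTV-Cre at 0. The fixed block and the shared scan day both set Ad-Cre transplants against tumours that were not transplanted. At the dim loci that contrast partly restates the choice of the loci. For transplanted against other MMTV-Cre tumours the count became 2 with no filter and 2 with dim spots raised to the floor. It was 2 with scan day as a random block besides, where 16 of all 75587 windows passed. The count ran from 0 to 48 when a tumour was left out. The library labelled MMTV-Cre transplant 2 set this range: leaving it out gave 3 windows in the main setting, 48 with dim spots at the floor and 47 with no filter. The floor, the fixed block and these 2 runs with no filter were chosen after seeing the data. Signal near background limits the dim loci: with dim spots at the floor, the ratio of a tumour with signal there is a lower bound. No paired analysis was possible because the labels give no replicate numbers, so that nothing pairs the tumours.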

Other observations

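One further probe near the loci was looked at after the profile of chromosome 7 had been seen, and it belongs to none of the comparisons. It lay 19.4 kb before the bright chromosome 7 locus, the only 1 of 7 probes between 25 and 10 kb before the locus whose tumour signal ranged over more than 1 (log2). Its pool signal was 0.0039 to 0.0162 times the autosomal median. The tumour signal was 0.0163 (nulliparous) and 0.0259 (parous), with 0.0153 for the library labelled MMTV-Cre transplant 2. MMTV-Cre transplants 1, 3, 4 and 5 gave 0.508, 0.517, 0.519 and 0.789, and the Ad-Cre transplants 0.552 and 0.940. This is the division of tumours seen at the dim loci of chromosomes 4, 11 and 12, a short distance from a locus with another order of tumours.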
